A study of Mus musculus with 20 samples.

Results

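The miR-15a/16-1 and miR-15b/16-2 clusters give rise to 7 mature mouse microRNAs (miRNAs), and all 7 were listed in the miRNA tables of both embryonic stem cell lines of the study. They are miR-15a-5p, miR-15a-3p and miR-16-1-3p from the Dleu2 locus, miR-15b-5p, miR-15b-3p and miR-16-2-3p from the Smc4 locus, and miR-16-5p, which both loci make. The members were taken by name, and they are 7 of the 1063 miRNAs that the tables of both lines share. All 7 were among the 813 miRNAs with enough counts to be tested.

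Small RNA was sequenced from mouse embryonic stem cells (ESCs) while they turned into epiblast stem cells (EpiSCs), the cell culture counterpart of the epiblast just after implantation. A female line, PGK, and a male line, E14, were each sampled at 5 stages in 2 experiments, numbered 2 and 3 in the labels, which gave 10 groups of 2 libraries. Day 0 cells grew in 2i medium, and from then on cells were plated on fibronectin in N2B27 medium with Activin A and Fgf2 and split until 30 days. The stages were day 0, day 4, day 10, days 19 to 23 (female days 23 and 21, male days 21 and 19) and days 27 to 30 (female day 29 in both experiments, male days 27 and 30). The labels name no genetic change, transgene or other treatment in either line. Sex cannot be told apart from line, since there is 1 line of each, and the 2 day 0 libraries of a line serve every comparison of that line with day 0. Whether the 2 experiments were separate cultures throughout is not stated, so p-values measure the spread between these libraries.

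miRNAs guide Argonaute proteins to messenger RNAs by pairing of the seed, bases 2 to 8 of the mature strand, and the targets are then repressed. Members of the miR-15/16 family share a seed and are known as brakes on cell division: their targets include cyclins, cyclin-dependent kinases and the survival factor Bcl2, and loss of the human Dleu2 locus is a common lesion in chronic lymphocytic leukaemia. Each hairpin precursor can yield a strand from its 5′ side (5p) and one from its 3′ side (3p), of which the 5p strand is the abundant one in this family.

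The Dleu2 locus hairpins lie on the minus strand of chromosome 14 in GRCm38, Mir15a at 61632027 to 61632110 and Mir16-1 at 61631880 to 61631972. The gap between them is 54 bases, and both fall in introns of all 8 Dleu2 transcripts that span them in GENCODE M21, a non-coding RNA gene. The Smc4 locus hairpins lie on the plus strand of chromosome 3, Mir15b at 69009772 to 69009835 and Mir16-2 at 69009902 to 69009996, 66 bases apart. Both fall in introns of all 5 spanning transcripts of Smc4, which encodes a condensin subunit. The mature sequences, from RefSeq on GRCm38.p6, are shown 5′ to 3′ with the seed in capitals, because they decide which members act on like targets and which reads can be assigned to 1 locus.
mmu-miR-15a-5p: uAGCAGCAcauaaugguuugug
mmu-miR-15b-5p: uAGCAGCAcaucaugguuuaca
mmu-miR-16-5p: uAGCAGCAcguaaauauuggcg
mmu-miR-15a-3p: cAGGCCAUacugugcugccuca
mmu-miR-15b-3p: cGAAUCAUuauuugcugcucua
mmu-miR-16-1-3p: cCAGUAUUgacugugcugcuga
mmu-miR-16-2-3p: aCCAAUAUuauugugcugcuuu

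The 3 5p strands carry 1 seed, AGCAGCA, while each of the 4 3p strands carries a seed of its own. miR-15a-5p and miR-15b-5p differ at 4 positions, so reads of full length tell them apart. The Mir16-1 and Mir16-2 hairpins, shown with the mature strands in capitals, contain the same 5p strand and different 3p strands.
Mir16-1: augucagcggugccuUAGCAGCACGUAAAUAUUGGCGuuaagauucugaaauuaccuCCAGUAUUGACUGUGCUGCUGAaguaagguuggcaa
Mir16-2: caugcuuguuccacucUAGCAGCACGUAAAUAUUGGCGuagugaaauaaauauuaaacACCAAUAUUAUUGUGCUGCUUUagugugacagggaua

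A count of miR-16-5p therefore belongs to both loci together, and only the 3p strands, miR-16-1-3p and miR-16-2-3p, can be assigned to 1 of them. How the authors' counting treated sequences with more than 1 origin is not given in the sources used here.

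Libraries held 7112394 to 18031067 miRNA counts. Levels are given in CPM, a strand's count relative to the library total as scaled by edgeR's trimmed mean of M-values (TMM), and 3 counts in a library correspond to 0.166 to 0.422 CPM. In both lines the day 0 library of experiment 3 carries a cell type label that names ESCs and EpiSCs together, although its title and day label say day 0. The summed level of 5 naive markers, in CPM of plain library totals, was 135995 to 209641 CPM in the 4 day 0 libraries and 43379 to 127993 CPM later. That of 5 primed markers was 134.5 to 495 CPM at day 0 and 8825 to 56185 CPM later, so the experiment 3 libraries stood with day 0 on both lists. Other cell types were followed by lists of their miRNAs. The 5 mesenchyme markers, of which 1 was at 0 at day 0, summed to 2893 to 7378 CPM at day 0, to 356 to 1223 CPM at day 4 and to 1645 to 4204 CPM at days 27 to 30. Sums of 4 blood markers were at most 72.1 CPM, and 3 endoderm and liver markers went from 983 to 2935 CPM at day 0 to 317 to 956 CPM later. Of these 3, 1 was at 0 at female day 0 and in some later groups of both lines. A pair of neural markers summed to 138 to 252 CPM at day 0. In the male line they summed to 1196 to 1268 CPM at day 4 and to 637 to 1498 CPM at days 27 to 30. The female sums at these stages were 528 to 557 and 340 to 391 CPM. Endoderm and liver sums were thus highest at day 0, as was TMM-scaled miR-16-5p, while mesenchyme sums of days 27 to 30 overlapped with day 0. Female blood sums were also highest at day 0, at 42.6 to 72.1 CPM against at most 16.3 CPM later. The part of other cells in the results below was not tested.

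miR-16-5p was the most abundant member in each of the 20 libraries and fell in both lines. The 7 members together made up 0.931% to 2.92% of all miRNA counts in a library, and miR-16-5p alone made up 89.4% to 93.5% of the members' counts. miR-15a-5p followed at 408 to 2227 CPM and miR-15b-5p at 552 to 1005 CPM, and the 3p strands lay between 7.08 and 85.8 CPM. In counts per library, miR-16-5p had 95992 to 397743, miR-15a-5p 3749 to 30898 and miR-15b-5p 4930 to 12332, against 90 to 296 for miR-15a-3p, 133 to 533 for miR-16-2-3p, 168 to 939 for miR-16-1-3p and 238 to 966 for miR-15b-3p. Counting error is thus largest for the 3p strands.

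**Figure D1:**
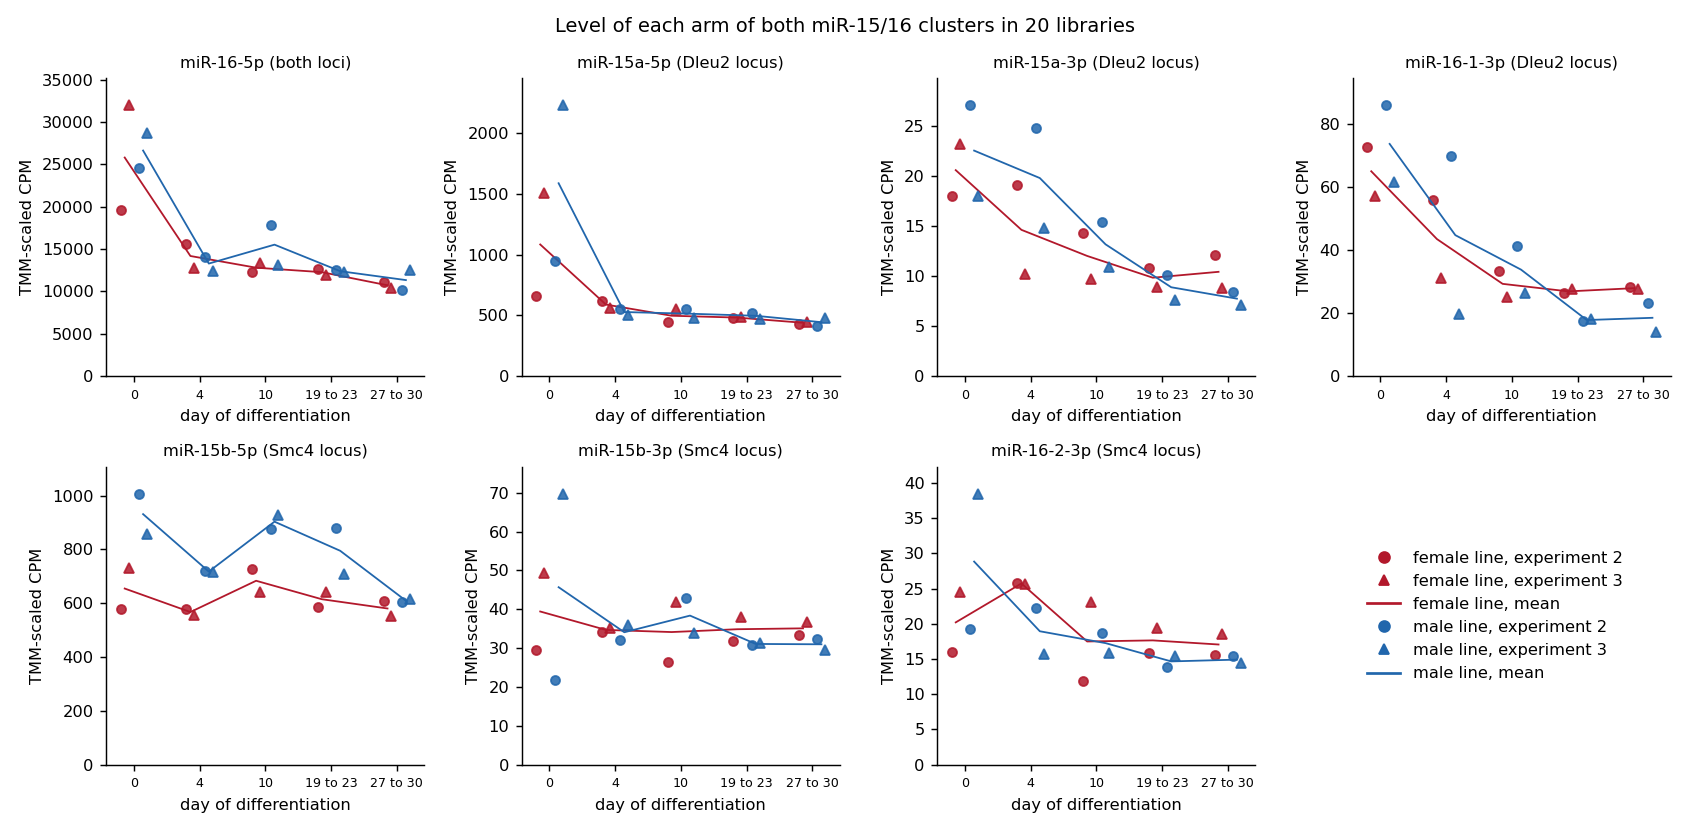
TMM-scaled CPM (linear axis, a panel for each member) of the 7 members at each stage in the female line (red) and the male line (blue), with circles for experiment 2, triangles for experiment 3 and lines through the group means. miR-16-5p lies at or above 10115 CPM throughout and is highest at day 0, and miR-15b-5p keeps within 552 to 1005 CPM over all 20 libraries.

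In the female line miR-16-5p stood at 19653 and 31946 CPM at day 0 (experiment 2, then experiment 3), 15570.3 and 12771 on day 4, 12277 and 13304 on day 10, 12635 and 11887 on days 19 to 23 and lastly 11044 and 10377 on days 27 to 30. In the male line the corresponding values were 24581 and 28671, 14111 and 12442, 17882 and 13139, 12495 and 12257, and 10115 and 12535 CPM. On this TMM scale all 16 later libraries lay below all 4 day 0 libraries, with the highest of them, the male day 10 library of experiment 2, at 17882 CPM. As a percentage of plain counts this held within each line but not across them. The female day 0 library of experiment 2 held 1.64%. Male libraries held 1.68% and 1.75% at days 19 to 23, and 1.68% at days 27 to 30 in experiment 3. Group means went from 25799.8 ± 8693 CPM (SD, n = 2) at day 0 to 10710.3 ± 472 at days 27 to 30 in the female line, and from 26626 ± 2892 to 11325 ± 1711 in the male line. At days 27 to 30 this was 2.41-fold lower in the female line (log2 change -1.27 ± 0.28 SE, adjusted p = 0.00193) and 2.35-fold lower in the male line (-1.23 ± 0.28, adjusted p = 0.00325). All p-values against day 0 are from edgeR's quasi-likelihood test with Benjamini-Hochberg adjustment over the 813 miRNAs tested, at a threshold of 0.05. In bulk RNA, fewer cells that make a strand and less of it per cell cannot be told apart.

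The drop was already in place at day 4. miR-16-5p was then lower by 0.86 ± 0.28 in the female line (log2 change -0.86, adjusted p = 0.0219) and 2.01-fold lower in the male line (-1.004 ± 0.28, adjusted p = 0.00923). Day 10 and days 19 to 23 gave -1.01 and -1.07 in the female line (adjusted p = 0.00942 and 0.00605) and -0.78 and -1.11 in the male line (adjusted p = 0.0406 and 0.00673). So miR-16-5p passed the test in each of the 8 comparisons with day 0. Leaving out 1 library at a time kept the change at days 27 to 30 in all 20 fits of either line, at -1.57 to -1.0 in the female line and -1.41 to -1.12 in the male line. The female day 4 call was lost without the female day 4 library of experiment 3 (-0.73, adjusted p = 0.145), and the male day 10 call was lost without the experiment 3 library of male day 0 (adjusted p = 0.0885) or of male day 10 (0.106), in 3 other fits (0.0506 to 0.0524) and without a filter on low counts (0.0896). Without the day 0 library of experiment 3, the changes at days 27 to 30 were -1.0 in the female line (adjusted p = 0.00942) and -1.23 in the male line (adjusted p = 0.00601).

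miR-15a-5p, which shares the seed and comes from the Dleu2 locus alone, also fell, and its size of change rested on the day 0 library of experiment 3. Female libraries held 661 and 1505 CPM at day 0, 616 and 560.5 on day 4, 443 and 549 on day 10, 479.6 and 482 on days 19 to 23 and lastly 431 and 445 on days 27 to 30. Male libraries held 947 and 2227, 554 and 499, 552 and 474, 522 and 469, and 408 and 477 CPM. Within each line every later library was below both day 0 libraries, and at day 0 itself experiment 3 was above experiment 2 in both lines. At days 27 to 30 miR-15a-5p was 2.47-fold lower in the female line (log2 change -1.31 ± 0.42, adjusted p = 0.0198) and 3.58-fold lower in the male line (-1.84 ± 0.42, adjusted p = 0.0038).

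Earlier stages of miR-15a-5p gave -0.88, -1.13 and -1.17 in the female line at day 4, day 10 and days 19 to 23, of which the first missed the threshold (adjusted p = 0.103, then 0.0426 and 0.0353). That day 4 change passed in 13 of the 20 fits without 1 library (adjusted p as low as 0.0102), and with 18 of the 20 libraries as the TMM reference (-1.29 to -0.82 over all 20). The male line gave -1.59, -1.63 and -1.68, all past it (adjusted p = 0.00755, 0.00891 and 0.00688). Without the female day 0 library of experiment 3, the 4 female changes were -0.57, -0.55, -0.57 and -0.72 and none passed (adjusted p = 0.212 at days 27 to 30). Without the male one they were -1.11, -0.93, -1.05 and -1.20, and those at day 4 and at days 27 to 30 still passed (adjusted p = 0.0418 and 0.0287), while those at day 10 and days 19 to 23 did not (0.0905 and 0.0569). Without the day 0 library of experiment 2 the changes at days 27 to 30 were -1.77 in the female line and -2.37 in the male line. The female calls at days 19 to 23 and 27 to 30 were also lost without either library of their own stage (adjusted p = 0.126 and 0.133, then 0.0926 and 0.0665), and the female day 10 call was lost without either female day 10 library (0.192 and 0.0682), in 5 fits without a library of another group (0.0506 to 0.0632) and without a filter on low counts (0.0795).

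The 3p strands of the Dleu2 locus, miR-16-1-3p and miR-15a-3p, passed the test in the male line from days 19 to 23 on. At these stages both missed the threshold in the female line, where they passed with the experiment number in the fit as a replicate block. miR-16-1-3p, the only product by which the Mir16-1 hairpin can be followed alone, stood in male libraries at 85.8 and 61.4 CPM at day 0, 69.6 and 19.7 on day 4, 41.2 and 26.3 on day 10, 17.5 and 17.9 on days 19 to 23 and lastly 23.04 and 13.9 on days 27 to 30. Female libraries held 72.6 and 57.2, 55.7 and 31.1, 33.3 and 25.1, 26.2 and 27.5, and 28.2 and 27.5 CPM. The day 4 libraries of the male line were the most unlike, with that of experiment 2 among the day 0 values and that of experiment 3 among the late ones. From day 10 on no library of either line reached its line's day 0 values.

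miR-16-1-3p was 4.15-fold lower in the male line at days 19 to 23 (log2 change -2.05 ± 0.52, adjusted p = 0.00728) and 3.99-fold lower at days 27 to 30 (-1.995 ± 0.52, adjusted p = 0.00775). The second call was lost without the male library of experiment 3 at that stage (-1.69, adjusted p = 0.0813). Without the male day 0 library of experiment 3 the 2 male changes were -2.38 and -2.31 and kept their calls (adjusted p = 0.00725 and 0.0081). In the female line the log2 changes were -1.15, -1.27 and -1.22 from day 10 on and missed the threshold (adjusted p = 0.0839, 0.0572 and 0.0647). With the experiment number as a replicate block these female values were -1.16, -1.24 and -1.19 and passed (adjusted p = 0.0362, 0.0263 and 0.0291), as did the male day 10 value, -1.14 (adjusted p = 0.044, against 0.101 without the block).

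miR-15a-3p reached the lowest level of the 7 strands. Its male libraries read 27.04 and 18.0 CPM at day 0, 24.8 and 14.8 on day 4, 15.4 and 10.9 on day 10, 10.1 and 7.61 on days 19 to 23 and lastly 8.38 and 7.08 on days 27 to 30, and its female libraries 18.0 and 23.2, 19.1 and 10.1, 14.3 and 9.71, 10.8 and 8.89, and 12.1 and 8.75 CPM. In both lines the last 3 stages lay wholly below day 0. The male line was 2.54-fold lower at days 19 to 23 (log2 change -1.34 ± 0.43, adjusted p = 0.0261) and 2.91-fold lower at days 27 to 30 (-1.54 ± 0.44, adjusted p = 0.0121). Both male calls were lost without the male day 0 library of experiment 2 (adjusted p = 0.12 and 0.0525) and without the experiment 3 library of the stage itself (0.0913 and 0.0884). The female changes of -1.07 and -0.98 at these stages missed the threshold (adjusted p = 0.0603 and 0.0769) and passed it with the replicate block (-1.11 and -1.04, adjusted p = 0.0208 and 0.026).

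No strand of the Smc4 locus passed edgeR's test in the fit over all 20 libraries, at any stage in either line. miR-15b-5p, which has the same seed as miR-15a-5p, read 579.7 and 729 CPM in the female line at day 0, 579 and 556 on day 4, 725 and 641 on day 10, 587 and 642 on days 19 to 23 and lastly 608 and 552 on days 27 to 30. The male line read 1005 and 857, 718 and 717, 877 and 929, 881 and 709, and 603 and 616 CPM. Female values overlapped with day 0 at most stages, while the male libraries of days 27 to 30 lay below both male day 0 libraries. The log2 change at days 27 to 30 was -0.17 in the female line (adjusted p = 0.643) and -0.61 ± 0.28 in the male line (adjusted p = 0.0915). DESeq2 called this male value (-0.54, adjusted p = 0.0479) and that of day 4 (-0.61, adjusted p = 0.0222), for which edgeR gave -0.38. Without 1 library edgeR called the late male value in 4 of 20 fits (adjusted p = 0.0319 to 0.0409) and the male day 4 value in 1 (0.0476).

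miR-16-2-3p, the only product by which the Mir16-2 hairpin can be followed alone, read 15.96 and 24.5 CPM in the female line at day 0, 25.8 and 25.7 on day 4, 11.9 and 23.2 on day 10, 15.9 and 19.4 on days 19 to 23 and lastly 15.6 and 18.5 on days 27 to 30. The male line read 19.3 and 38.4, 22.2 and 15.7, 18.7 and 15.8, 13.9 and 15.5, and 15.4 and 14.5 CPM. Of the 4 female libraries from days 19 to 23 on, 2 lay between the day 0 values and 2 just below them, and the 4 male ones lay below both male day 0 libraries. Its log2 changes at days 27 to 30 were -0.24 in the female line (adjusted p = 0.67) and -0.95 ± 0.42 in the male line (adjusted p = 0.0817). The late male change was -1.40 and passed without the male day 0 library of experiment 2 (adjusted p = 0.0274), and was -0.47 without that of experiment 3. It passed in 3 of 20 fits without 1 library, as did the change at male days 19 to 23.

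miR-15b-3p showed the widest day 0 pair of the members, 21.7 CPM in the male library of experiment 2 and 69.6 CPM in that of experiment 3, against 29.5 and 49.4 CPM in the female line. All 16 later libraries lay between 26.4 and 43.0 CPM. Its log2 changes at days 27 to 30 were -0.17 in the female line (adjusted p = 0.788) and -0.56 ± 0.46 in the male line (adjusted p = 0.353). Without the male day 0 library of experiment 2 the male change was -1.21 and passed (adjusted p = 0.0353), and without that of experiment 3 it was 0.41, so this strand gives no direction that holds for both.

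**Figure D2:**
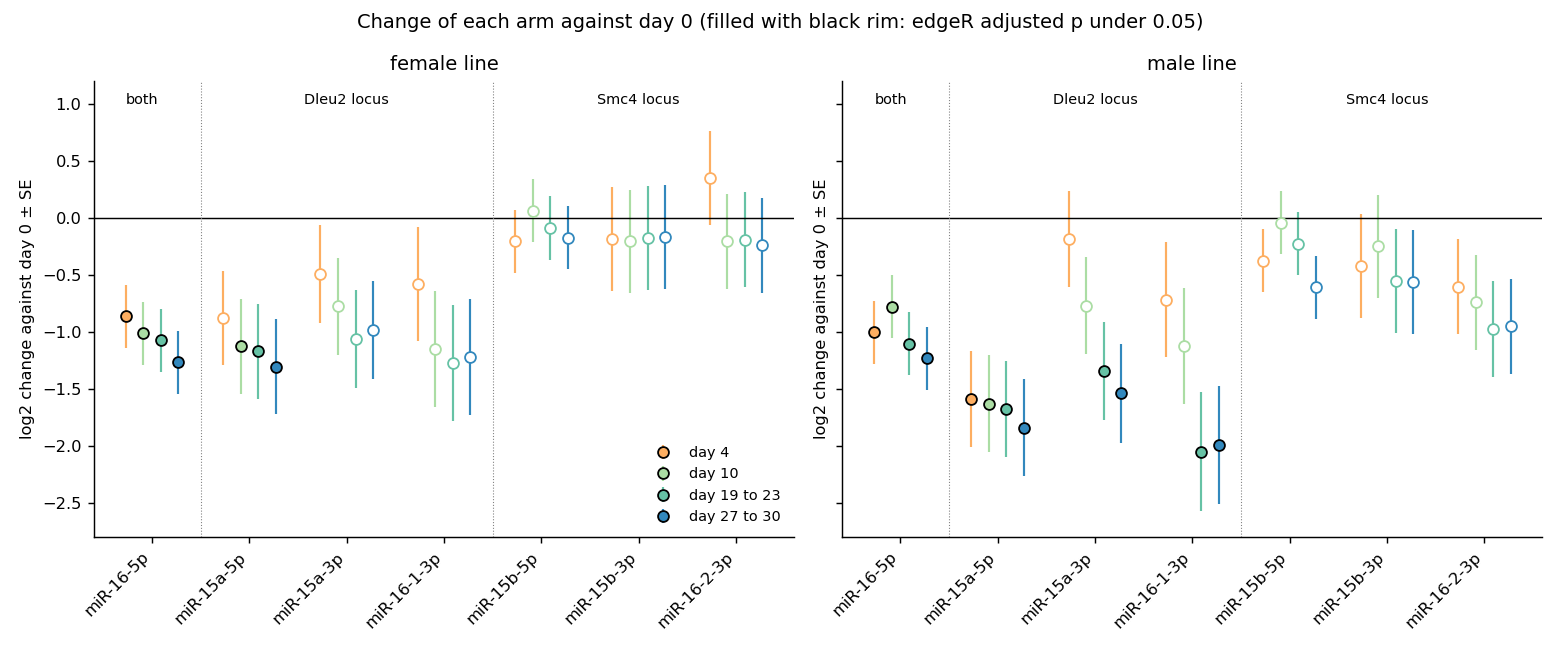
Log2 change against day 0 with its standard error for the 7 members, with a panel for each line and points coloured by later stage. Filled points with a black rim have an edgeR adjusted p under 0.05. miR-16-5p passes at all 8 points and the strands of the Dleu2 locus at 11 of 24, all below 0, while the strands of the Smc4 locus pass at none of 24. Points of a line share its day 0 libraries. Of all miRNAs tested, 14.6% to 21.2% were called lower in a comparison.

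Over the 8 comparisons with day 0, all 24 changes of the 3 Dleu2 strands were negative and 11 passed, and 22 of the 24 changes of the 3 Smc4 strands were negative and 0 passed by edgeR (3 at an unadjusted p under 0.05, and 2 by DESeq2). The comparisons of a line share its 2 day 0 libraries, so the 24 changes of a locus are not separate results. Of all miRNAs, edgeR called 14.6% to 21.2% lower in a comparison. DESeq2 called 200 and 184 lower at male day 4 and days 27 to 30, where its 2 calls lie. In the female line 1 member of 7 was lower at day 4, where 14.6% of all miRNAs tested were called lower, 2 at day 10 (18.8% of all), 2 at days 19 to 23 (19.3%) and 2 at days 27 to 30 (19.4%). In the male line 2 were lower at day 4 (18.3%), then 2 at day 10 (17%), followed by 4 at days 19 to 23 (18.5%) and by 4 at days 27 to 30 (21.2%). A count of 1 or 2 of 7 is near these shares and 4 of 7 is above them, a difference that was not tested, and no member was called higher at any stage. The 2 late female counts depend on the fit. Each was 4 with the replicate block and by DESeq2, and with library totals they were 0 and 1. They do not set the lines apart: the change from day 0 to days 27 to 30 differed between the lines for 0 of 7 members (0.369% of all). The members' median log2 change at days 27 to 30 was -0.98 in the female line and -1.23 in the male line, where the median of all miRNAs tested was 0.01 and 0.05.

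The scaling bears on these values. With library totals in place of TMM, the median of all miRNAs tested itself moved to 0.42 in the female line and 0.71 in the male line at days 27 to 30, and only the female miR-16-5p change (-0.86, adjusted p = 0.0189) and the male miR-16-1-3p change (-1.33, adjusted p = 0.022) passed there. miR-16-5p was then -0.58 in the male line (adjusted p = 0.0987) and miR-15a-5p -0.89 and -1.21 (adjusted p = 0.135 and 0.0509). Under the same scaling miR-16-5p also missed the threshold at days 19 to 23 in the female and the male line (-0.55 and -0.40, adjusted p = 0.117 and 0.254) and at male day 10 (-0.61, adjusted p = 0.102). miR-16-5p and the Dleu2 strands stayed negative in every comparison with day 0 under each scaling, filter and model tried, whereas under library totals the miR-15b strands turned positive at days 19 to 23 and 27 to 30 in both lines and miR-16-2-3p in the female line.

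TMM scales every library to 1 reference library, and the one edgeR took here was the female day 0 library of experiment 3, which was also the highest of the female libraries in miR-16-5p and miR-15a-5p. When 1 library was left out, edgeR took another reference in 16 of the 20 fits. With each of the 20 libraries as the reference in turn, the miR-16-5p change passed in all 20 fits in 7 of the 8 comparisons with day 0 and in 18 at male day 10. It ranged from -1.51 to -1.13 at female and from -1.36 to -1.11 at male days 27 to 30. The male calls of miR-15a-5p, miR-16-1-3p and miR-15a-3p were kept in all 20. In the female line miR-15a-5p passed with 17 references at day 10, 19 at days 19 to 23 and 20 at days 27 to 30. At the last 2 stages miR-16-1-3p passed there with 16 and 15 references, and miR-15a-3p with 16 and 13. The factors were also averaged over the 20 references. In that fit miR-16-1-3p passed at both late female stages (-1.35 and -1.31, adjusted p = 0.0392 and 0.0426). So did miR-15a-3p (-1.14 and -1.07, adjusted p = 0.0374 and 0.0462), and miR-15a-5p passed at female day 4 (-1.12, adjusted p = 0.0392). These fits with other references were chosen after the data were seen.

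Between consecutive stages after day 4 no member passed the test. The steps from day 4 to day 10, from day 10 to days 19 to 23 and from there to days 27 to 30 called 0 of 7 members in either line by edgeR and by DESeq2, and 0 at an unadjusted p under 0.05. Of all miRNAs edgeR called 6.52%, 0.369% and 0% at these steps for the female and 8.12%, 0.246% and 0% for the male line. The largest such step was 0.93 on the log2 scale, in the male line from day 10 to days 19 to 23.

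A difference between the lines was called for no member as fitted here, and for miR-15b-5p this rested on the scaling. Averaged over the stages, 0 of 7 members differed between the female and the male line by edgeR, where 18.5% of all miRNAs did. One had an unadjusted p under 0.05, miR-15b-5p (female minus male log2 difference -0.34 ± 0.12 SE, edgeR adjusted p = 0.072), and DESeq2 called 1 member, the same one. With 1 library left out, edgeR called miR-15b-5p in 16 of 20 fits (-0.55 to -0.49 in those, adjusted p = 0.00829 to 0.0314). With each library in turn as the TMM reference it was called in 19 of 20 (-0.53 to -0.34 over all). At day 0 alone 0 of 7 differed (8.73% of all), at days 27 to 30 0 of 7 (0% of all), and the change from day 0 to days 27 to 30 differed between the lines for 0 of 7 (0.369% of all). For miR-16-5p the difference between the lines in that change was -0.04 ± 0.39 on the log2 scale.

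The 2 loci were also compared directly by count ratios within each library, which no scaling of libraries can alter. These ratios use the same counts as the tests above. The ratio of miR-15b-5p to miR-15a-5p was 0.877 and 0.485 at day 0 and 1.41 and 1.24 at days 27 to 30 in the female line (experiment 2, then experiment 3). The male line had 1.06 and 0.385, then 1.48 and 1.29. The 4 late libraries lay above all 4 day 0 libraries, and the 12 libraries from day 10 on ranged from 1.17 to 1.96. Over the lines the ratio was 2.09-fold higher at days 27 to 30 than at day 0 (log2 difference 1.07 ± 0.35 SE, 4 against 4 libraries). The exact two-sided permutation test gave p = 0.0286, the smallest that 4 against 4 allows. It was 0.229 after Benjamini-Hochberg adjustment over the 12 ratio tests made, so the difference between the loci did not pass the correction. With this smallest p, a ratio could not pass unless several of the others were also at it. The correction therefore cannot decide whether the loci differ.

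For the miR-16 hairpins the ratio of miR-16-2-3p to miR-16-1-3p was 0.22 and 0.428 at day 0 and 0.555 and 0.672 at days 27 to 30 for the female line. For the male line it was 0.225 and 0.626, then 0.668 and 1.04. It was under 1 in 19 of the 20 libraries, so counts of the Dleu2 strand exceeded those of the Smc4 strand in all but the male library of experiment 3 at days 27 to 30. The late ratio was 2.10-fold that of day 0 (log2 difference 1.07 ± 0.42, exact permutation p = 0.0571, adjusted 0.229), with 1 day 0 library, the male one of experiment 3, reaching into the late range. The ratio of miR-15b-3p to miR-15a-3p differed by 1.02 ± 0.49 on the log2 scale (p = 0.0571 by the exact permutation test, adjusted 0.229), from 1.64 and 2.13 (female) and 0.804 and 3.86 (male) to 2.77 and 4.20 and to 3.88 and 4.17.

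Within 1 experiment the 3 ratios were higher at days 27 to 30 than at day 0 in both lines. In experiment 2 the mean log2 difference over the lines was 0.58 for miR-15b-5p to miR-15a-5p, 1.45 for miR-16-2-3p to miR-16-1-3p and 1.51 for miR-15b-3p to miR-15a-3p. In experiment 3 it was 1.55, 0.69 and 0.54. So all 3 pairs of strands lay further toward the Smc4 locus late than at day 0 in each line and experiment. In both lines the shift was larger in experiment 3 for the 5p pair and in experiment 2 for the miR-16 3p pair. For the miR-15 3p pair the lines differed. The male shift was 2.26 in experiment 2 and 0.11 in experiment 3, and the female shift 0.75 and 0.97.

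**Figure D3:**
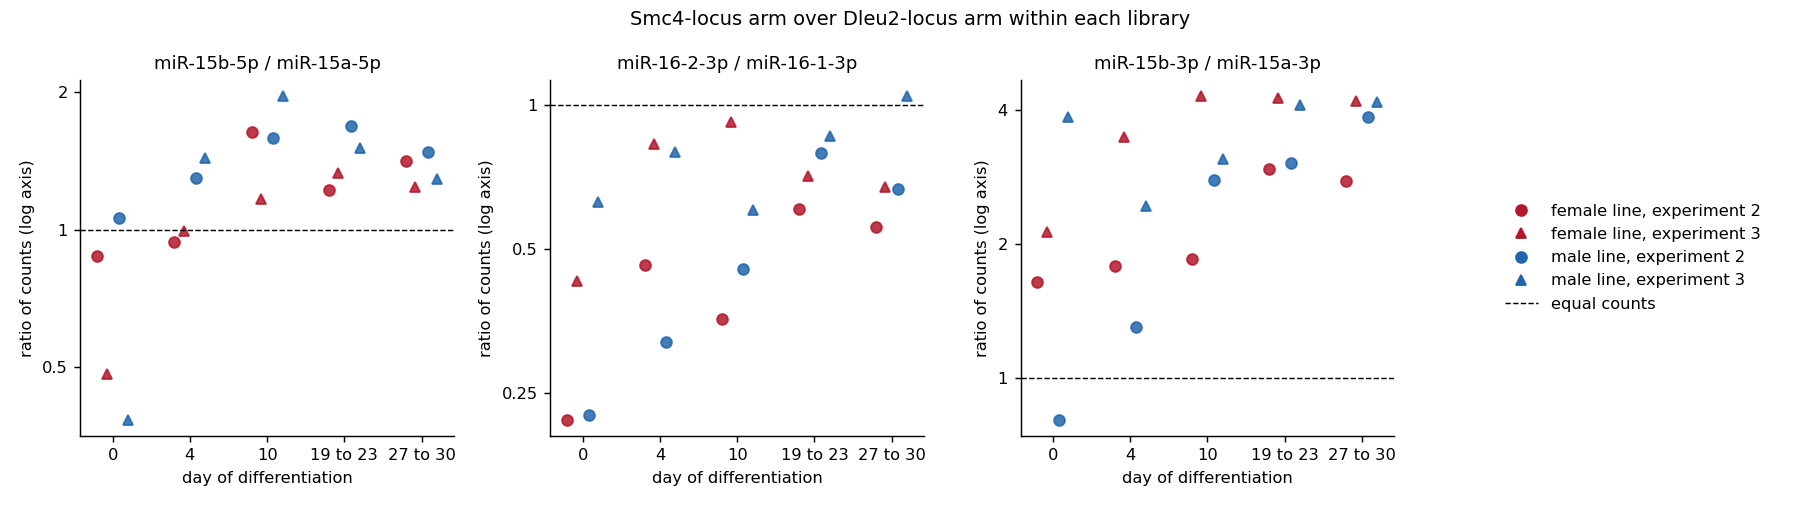
Count ratio of a Smc4 locus strand to its Dleu2 locus counterpart in each library (log axis, dashed line at equal counts), by stage, for miR-15b-5p to miR-15a-5p, miR-16-2-3p to miR-16-1-3p and miR-15b-3p to miR-15a-3p, with female libraries in red, male in blue, circles for experiment 2 and triangles for experiment 3. The first ratio lies at 0.385 to 1.06 at day 0 and at 1.24 to 1.48 at days 27 to 30, with no overlap.

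The balance of the 2 strands of a hairpin did not pass a test. The 5p count was 22.4 to 123.6 times the 3p count for miR-15a (median 46.7) and 12.3 to 46.2 times for miR-15b (median 19.1), and miR-16-5p was 154 to 443 times the sum of its 3p strands (median 274). The late minus day 0 log2 differences were -0.20, -0.16 and 0.04, with exact permutation p = 0.8, 0.857 and 0.8286. Among the 4 day 0 libraries the male ones were the lowest and the highest in both ratios, in opposite order: the miR-15a ratio was 35.01 in experiment 2 and 123.6 in experiment 3, and the miR-15b ratio 46.2 and 12.3.

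Other loci make strands of the same seed family, and these show what share of the family the clusters supply. Of 10 other miRNAs listed for this family, 6 were in the tables of both lines and 4 had enough counts to be tested. The sequences of these 4 follow with the seed in capitals, 1 base of which differs in miR-503-5p (miR-497a-5p is called miR-497-5p in the tables and below).
mmu-miR-195a-5p: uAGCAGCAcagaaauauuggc
mmu-miR-322-5p: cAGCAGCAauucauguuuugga
mmu-miR-497a-5p: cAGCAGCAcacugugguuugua
mmu-miR-503-5p: uAGCAGCGggaacaguacugcag

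The seed family held 1.001% to 3.01% of all miRNA counts in a library, and miR-16-5p was 81.7% to 90.5% of it, against 2.67% to 6.86% for miR-15a-5p, 2.06% to 5.96% for miR-15b-5p and 0.530% to 8.39% for miR-322-5p. In the male line miR-322-5p read 144.1 and 233 CPM at day 0, 562 and 411 on day 4, 981 and 663 on day 10, 729 and 1155 on days 19 to 23 and lastly 927 and 1281 on days 27 to 30. In the female line it read 1014 and 969.6 CPM at day 0 and 969 and 1037 CPM at days 27 to 30. The male day 0 libraries stood below every other library, and the late libraries of both lines overlapped.

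Against day 0, 2 of these 4 passed as higher and 0 as lower at day 4 of the female line (24.5% and 14.6% of all miRNAs). At female day 10 the counts were 0 and 0 (21.3% and 18.8% of all). At both later female stages they were 0 and 1 (21.2% and 19.3% of all, then 24.1% and 19.4%). In the male line 2, 2, 1 and 2 were higher at the 4 later stages (25.1%, 16.7%, 15.9% and 19.6% of all). At each of these male stages 0 were lower (18.3%, 17%, 18.5% and 21.2% of all). miR-322-5p rose 5.86-fold in the male line by days 27 to 30 (log2 change 2.55 ± 0.40, adjusted p = 0.000213), a call kept in all 20 fits without 1 library. Its earlier male changes were 1.37, 2.12 and 2.32 (adjusted p = 0.0104, 0.000937 and 0.000519), of which the day 4 call was lost without the male day 0 library of experiment 2 (adjusted p = 0.214) or either male day 4 library (0.149 and 0.0508).

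Between the lines at day 0, miR-322-5p was 5.26-fold higher in the female than in the male line (log2 difference 2.40 ± 0.40, adjusted p = 0.000986), and miR-503-5p, its partner from the same cluster, was 14.4-fold higher (3.85 ± 0.75, adjusted p = 0.00268). miR-503-5p is scarce, at 14.2 and 20.2 CPM in the female and 1.83 and 0.577 CPM in the male line at day 0, with 8 to 186 counts per library. By days 27 to 30 it read 4.03 and 3.01 CPM in the female line, a fall of 2.29 on the log2 scale (-2.29 ± 0.69, adjusted p = 0.0142), and 7.89 and 7.23 CPM in the male line, a 6.35-fold rise (2.67 ± 0.72, adjusted p = 0.0097). The male rise was lost without the male day 0 library of experiment 3 (adjusted p = 0.084), and the female fall was lost without either female library of days 27 to 30 (0.0523 and 0.0769). It was also lower at female days 19 to 23 (-1.92, adjusted p = 0.0338) and higher at male day 4 and day 10 (2.38 and 2.04, adjusted p = 0.0158 and 0.0401), and each of these calls was lost without the experiment 3 day 0 library of its line (0.0989, 0.172 and 0.217). The male day 4 call was also lost without the male day 4 library of experiment 2 (0.86, adjusted p = 0.38). The female one was lost without the experiment 2 library of days 19 to 23 (-1.43, adjusted p = 0.189), and the male day 10 one without the experiment 3 library of that day (1.45, adjusted p = 0.205).

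miR-195a-5p and miR-497-5p, which come from another cluster, rose in the female line at day 4. miR-195a-5p read 55.5 and 69.1 CPM at day 0 and 146 and 128 CPM at day 4 (log2 change 1.14 ± 0.32, adjusted p = 0.0122), and miR-497-5p 144.7 and 153 and then 434 and 243 CPM (1.19 ± 0.36, adjusted p = 0.0168). Neither pair overlapped with day 0. These calls were lost in 10 and 12 of the 20 fits without 1 library, most of them without a library of another group, with adjusted p up to 0.125 and 0.318. The latter is without the female day 4 library of experiment 2, where the miR-497-5p change was 0.54. With each library in turn as the TMM reference, miR-195a-5p passed in 16 of 20 fits (0.73 to 1.16) and miR-497-5p in 13 (0.76 to 1.19). Male day 4 libraries also stood above male day 0 in both miRNAs, though edgeR called neither change. For miR-195a-5p they read 200 to 212 against 141 to 170 CPM, and for miR-497-5p 401 to 556 against 317 to 324 CPM. At day 0 miR-195a-5p was lower in the female than in the male line (female minus male -1.32 ± 0.33, adjusted p = 0.0149), where the male line read 169.7 and 141 CPM, and without the female day 0 library of experiment 2 adjusted p was 0.0674. miR-497-5p differed by -1.11 (adjusted p = 0.0727), which passed with the replicate block (-1.10, adjusted p = 0.0467).

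**Figure D4:**
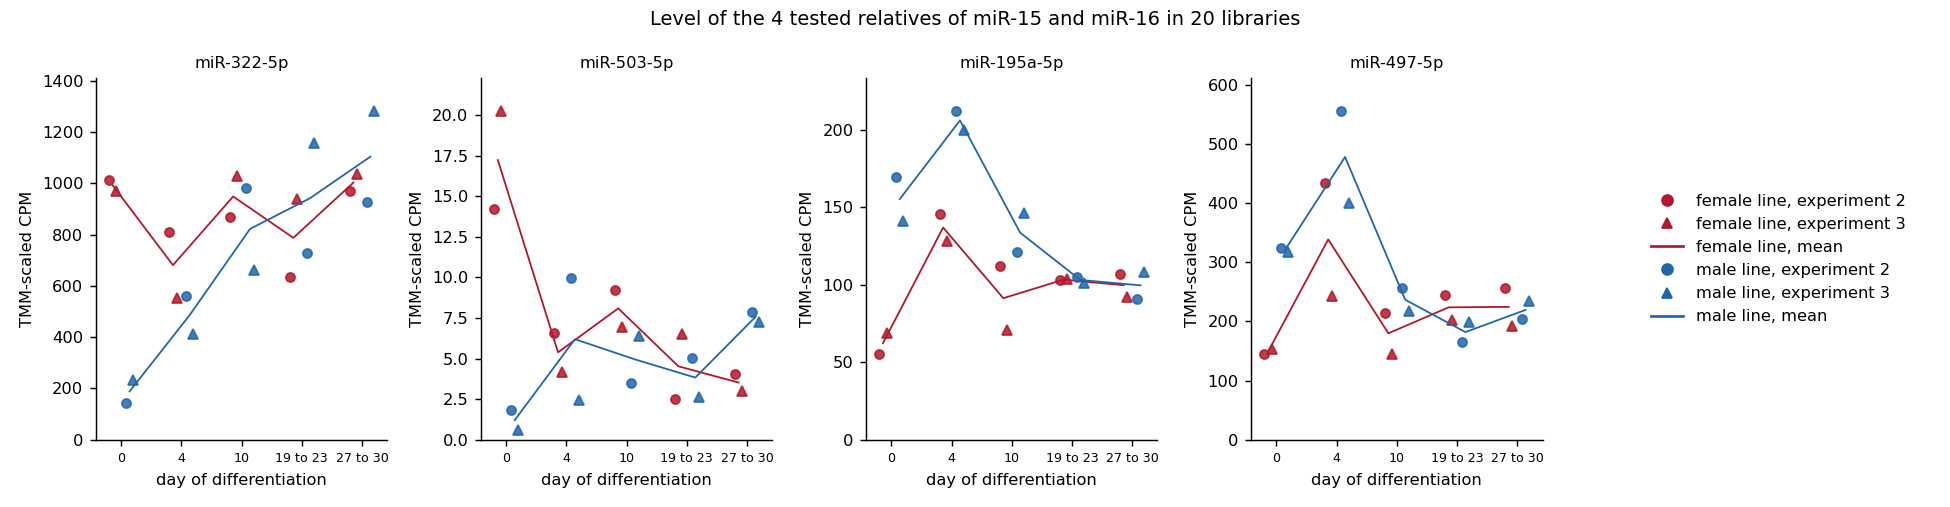
TMM-scaled CPM (linear axis, a panel for each miRNA) by stage of 4 other miRNAs of the seed family, miR-322-5p and miR-503-5p, then miR-195a-5p and miR-497-5p, with female libraries in red, male in blue, circles for experiment 2, triangles for experiment 3 and lines through group means. The lines stand apart at day 0, where female libraries are higher in miR-322-5p (1014 and 969.6 against 144.1 and 233 CPM) and lower in miR-195a-5p. At days 27 to 30 edgeR called 0 of these 4 miRNAs between the lines, and 0 of all 813 miRNAs tested.

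The miRNAs whose levels over the 20 libraries most resembled the abundant members were named by the highest Pearson r on the log2 scale among 329 miRNAs compared. For miR-16-5p they were miR-32-5p (r = 0.948), miR-107-3p (0.916) and miR-361-5p (0.914), and for miR-15a-5p they were miR-1839-5p (0.920), miR-107-3p (0.909) and miR-23b-3p (0.902). miR-107-3p was thus on both lists. For miR-15b-5p the highest values were lower, 0.766 for miR-677-5p, 0.643 for miR-301a-3p and 0.641 for miR-210-3p. The 20 points share lines, stages and experiments, so these values describe likeness only and have no p.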

How the data were processed

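Whole-number counts of mature miRNAs per library were deposited by the authors as 1 table per line. They also deposited a normalized signal (counts divided by size factors) and variance-stabilized values on a log2 scale, made within each line, which were not tested here. Per the submitters' processing notes, CASAVA 1.8.2 and DESeq2 were used with builds GRCm38 and mm10. Per the labels' protocols, RNA was taken in Trizol and treated with DNase. Which aligner and miRNA annotation were used, and how reads with several origins were counted, is not given in the sources used here. End variants of a strand are not resolved in these tables.

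Groups were taken from the labels' line and day. The 2 tables were joined on 1063 shared miRNAs (1091 male, 1109 female). Those kept by edgeR's filterByExpr, 813 with 99.997% of the counts, were fitted with edgeR 4.0.16 (R 4.3.3, limma 3.58.1): TMM scaling, 1 coefficient per group over all 20 libraries, quasi-likelihood tests, 10 residual degrees of freedom and Benjamini-Hochberg adjustment within each contrast. Log2 changes and CPM were computed here from the deposited counts. Ratios were taken of counts within a library and tested with exact two-sided permutation tests in SciPy 1.17.1. Replicates differed by far more than sampling noise (chi-square per degree of freedom at least 304).

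The replicate numbers are the experiment numbers of the labels, which pair libraries across groups. Deviations of same-numbered libraries correlated at 0.124 to 0.487 between the lines at a stage (5 pairs) and at -0.0693 to 0.396 between stages of a line (20 pairs). A fit with the number as a block was made beside the one without. Other alternatives were DESeq2's size factors, library totals, other filters on low counts, each line alone, DESeq2 1.42.0, leaving out each library in turn and, added after the data were seen, other TMM reference libraries.

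The members and the lists (seed family, markers) were chosen with earlier results of these data known. Values are given for the members and the tested seed family, and for the 3 miRNAs most like each abundant member. Positions are from GENCODE M21 and sequences from RefSeq, both on GRCm38.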

Additional observations from a re-analysis of the deposited data

Results flagged for a closer look

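The change of miR-503-5p, a relative with 1 base changed in the seed, from day 0 to days 27 to 30 differed between the lines. The female minus male difference of the log2 changes was -4.96 ± 1.0 SE (edgeR's quasi-likelihood interaction test, adjusted p = 0.0488), with a fall in the female and a rise in the male line. Leaving out 1 library at a time lost this call in 13 of 20 fits (adjusted p up to 0.267, without the female library of experiment 2 at days 27 to 30). Other scalings, filters and models that could test it gave -5.05 to -5.24 (adjusted p = 2.87e-05 to 0.0318), and a filter on a mean of 10 CPM removed the miRNA. For its cluster partner miR-322-5p the difference was -2.53 ± 0.54 (adjusted p = 0.0536), and with the replicate block -2.54 (adjusted p = 0.0177). With each library in turn as the TMM reference, the miR-503-5p difference passed in all 20 fits (-5.24 to -4.89) and that of miR-322-5p in 19. The lines stand for 1 female and 1 male line each.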

How the results depend on the processing

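The drop of miR-16-5p and of the 3 Dleu2 strands kept its direction in each comparison with day 0 under the alternatives run and with each library left out in turn, while calls depended on the scaling, the TMM reference library and single libraries. Members called against day 0 (main counts 1, 2, 2 and 2 in the female and 2, 2, 4 and 4 in the male line) moved as follows. At female day 4, 2 were called with a filter on a mean of 10 CPM, by DESeq2, with each line fitted alone and with TMM factors averaged over all reference libraries. With library totals 1 was called at female day 10, 0 at female days 19 to 23 and 1 at female days 27 to 30, and 1 at each of male day 10, days 19 to 23 and days 27 to 30, where the median of all miRNAs shifts. Without a filter 1 was called at day 10 in either line. At female days 19 to 23, 4 were called with DESeq2's size factors (RLE) and by DESeq2, and at days 27 to 30 4 by DESeq2. Of all miRNAs, RLE called 165 and DESeq2 181 lower at female days 19 to 23, against 157 in the main fit. At female days 27 to 30 DESeq2 called 185 lower, against 158. The averaged TMM factors called 4 at both of these female stages (167 and 170 of all miRNAs lower). Between the lines averaged over stages 1 member was called with RLE, with library totals, with the 10 CPM filter, by DESeq2 and with the averaged TMM factors. In that order 56, 49, 62, 95 and 63 of all miRNAs were higher in the female line, against 113 in the main fit. Those lower were 56, 54, 53, 71 and 56, against 37.

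With the replicate block, as one term or within each line, 4 members were called at female days 19 to 23 and 4 at days 27 to 30, and no call of a member against day 0 was lost. As one term the block called 168 of all miRNAs lower at each of these stages, and within each line 166 and 162. The block changed no other count of members by over 1.5 times. For the late ratios between loci, flipping signs within the 4 pairs of line and experiment reaches no p below 0.125.

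Signs reversed mainly for Smc4 strands. With library totals, miR-15b-5p was 0.43 and 0.23 at female days 19 to 23 and 27 to 30 and 0.20, 0.48 and 0.052 at male day 10 and the 2 later stages. miR-15b-3p was 0.10, 0.34 and 0.25 at female day 10 and later and 0.12 and 0.063 at the last 2 male stages, and miR-16-2-3p 0.12, 0.33 and 0.18 at female day 10 and later. At male days 27 to 30, miR-195a-5p was 0.025 and miR-497-5p 0.11. Values near 0 also crossed it: miR-16-2-3p at female day 4 (-0.0050) and miR-15b-5p at female day 10 (-0.030) with each line alone, miR-15b-5p at female days 19 to 23 with the 10 CPM filter (0.019) and at male day 10 with RLE (0.011), no filter (0.0093) and DESeq2 (0.011). miR-322-5p at female days 27 to 30 was -0.069 with RLE and by DESeq2, -0.016 without a filter, -0.078 with each line alone and -0.072 with the averaged TMM factors. The late ratio of miR-16-5p to its 3p strands was -0.31 in the female line alone. The cause was not tested.

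Leaving out 1 library at a time, members called ranged from 0 to 2 at female day 4, 1 to 3 at day 10, and 1 to 4 at days 19 to 23 and at 27 to 30. In the male line they ranged from 2 to 4 at day 4, 0 to 3 at day 10 and 2 to 6 at days 27 to 30, and between the lines averaged from 0 to 2. How many of all miRNAs each of those fits called is not given here, so these ranges have no share to be set against. miR-15b-3p ranged from -0.65 to 0.078, -0.46 to 0.13 and -0.48 to 0.13 at female day 10 and the later stages, and from -1.35 to 0.39, -0.96 to 0.77, -1.17 to 0.40 and -1.21 to 0.41 at the 4 male stages. miR-16-2-3p ranged from -0.095 to 0.36, -0.84 to 0.16 and -0.43 to 0.033 at female day 4, day 10 and days 19 to 23. miR-15b-5p ranged from -0.073 to 0.10 at female and -0.20 to 0.029 at male day 10, and miR-322-5p from -0.14 to 0.062 at female days 27 to 30. The log2 difference of the miR-15b-3p to miR-15a-3p ratio at day 4 ranged from -0.18 to 0.58. That of the 5p to 3p ratio at days 27 to 30 ranged from -0.43 to 0.17 for miR-15a, -0.40 to 0.24 for miR-15b (-0.36 to 0.28 at day 4) and -0.17 to 0.21 for miR-16. Statements on the Mir16-1 or the Mir16-2 hairpin alone rest on a 3p strand, and the 3p strands have the fewest counts of the members.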

Other observations

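Several ratios between strands differed between the experiments in the same direction in every group. The tests of late against day 0 ratios between loci do not pair libraries, so their spread includes this difference. The ratio of miR-16-2-3p to miR-16-1-3p, that of miR-15b-3p to miR-15a-3p and that of miR-15a-5p to miR-15a-3p were each higher in experiment 3 than in experiment 2 in 10 of 10 groups of line and stage. The ratio of miR-15b-5p to miR-15a-5p was higher in experiment 3 in 4 of 10 groups, that of miR-15b-5p to miR-15b-3p in 2 of 10, and that of miR-16-5p to its 3p strands in 7 of 10. In the female line at day 10, for example, miR-15b-3p was counted 1.85 times as often as miR-15a-3p in experiment 2 and 4.31 times in experiment 3.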
